A study of Mus musculus with 8 samples.

Results

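The clustered protocadherins are a family of neuronal cell-surface adhesion proteins whose genes sit in 3 adjacent arrays, named alpha, beta and gamma, on mouse chromosome 18. They were taken from the count table by gene name (names that begin with Pcdha, with Pcdhb and a number, or with Pcdhg), which gave 58 of 34299 genes: 14 alpha, 22 beta and 22 gamma members. The name Pcdha11 stands for 2 rows, ENSMUSG00000007440 and ENSMUSG00000102206, and each is given here with its identifier. Libraries came from whole brain of mice that were either wild-type (WT) or carried a knockout (KO) of Cav1, which encodes caveolin 1, the main coat protein of caveolae. The 3 groups were WT fetuses at day 15 of gestation (3 libraries), KO fetuses of the same age (3 libraries) and KO mice at week 70 (2 libraries), so that every week 70 library carried the KO. Polyadenylated RNA was sequenced after random priming, and nothing in the labels states the strain, the sex, the litters or how the knockout was built. The labels call the fetal samples biological replicates and are silent on this for week 70, where p-values may therefore measure technical spread only. The series design names WT brains of week 70 from an earlier study, which were not analysed here, so genotype could be compared only at day 15 and age only within KO.

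Each alpha and gamma gene of this family supplies a variable exon, with its own promoter, that is spliced to a set of constant exons common to its array, whereas each beta gene is a self-contained transcription unit with no constant exons. A neuron switches on a small and partly random choice of the alternate isoforms through promoters that bind CTCF and cohesin and are silenced by DNA methylation, and the proteins then bind only matching combinations on other cells, which is how branches of the same neuron recognise each other. The C-type isoforms at the 3' ends of the alpha array (Pcdhac1, Pcdhac2) and the gamma array (Pcdhgc3, Pcdhgc4, Pcdhgc5) are regulated apart from this choice and are tied to cell type and age.

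Total counts were 19414747 to 20833397 in WT day 15, 14110031 to 15245283 in KO day 15 and 18924304 to 20203233 in KO week 70, so the KO fetal libraries were the shallowest. Cav1 held 367, 218 and 329 counts in WT, 0, 3 and 1 in KO day 15 and 1 and 5 in KO week 70. The neuronal markers (12 of 12 genes detected in each group) were summed as normalised CPM (a gene's reads scaled to a total common to all libraries). The sums were 6162 to 6793 in WT day 15, 5466 to 5532 in KO day 15 and 10540 and 10740 at week 70. Markers of the labelled tissue were thus present throughout. Some libraries stood apart: WT replicate 1 had 4443 CPM over 6 fibroblast and meningeal markers against 307 to 518 in the other WT libraries, WT replicate 3 had 126.5 CPM over 7 Hox genes of hindbrain and spinal cord against 0.25 and 0.374, and KO week 70 replicate 2 had 2350 CPM over 4 choroid plexus markers against 67.2 in replicate 1. The 8 neural progenitor markers summed to 1340 to 1514 CPM in WT, 570.2 to 601 in KO day 15 and 208 to 218 in KO week 70.

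The members span 257 kb (alpha, chr18:36930184-37187661), 260 kb (beta, chr18:37264938-37524479) and 180 kb (gamma, chr18:37661793-37841873) of the GRCm38 build in the GENCODE annotation of release M 21. In that annotation 2860 exon bases belong to all 14 alpha members and 2116 to all 22 gamma members, while no exon base is common to all beta members. In 19 of 22 beta members no exon base is covered by any other annotated gene, on either strand. The exon bases that no other annotated gene covers made up a median of 46.4% of an alpha member, 54.7% of a gamma member and 100% of a beta member. Reads from the constant exons of the alpha or gamma array cannot be given to any member, and whether the authors dropped such reads, split them or counted them for each gene is not given in the sources used here.

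The counts themselves bear on this. Pcdha4, with 404 unshared bases (7.0% of its exons), Pcdha11 (ENSMUSG00000102206), with 16.8% unshared, and Pcdhga10, whose exons are fully covered by other genes including the antisense gene Gm26672, held 0 to 25 counts in any library and 218 counts over all 8. The other 33 alpha and gamma members held 13 to 1424 counts per library. Constant-exon reads counted for every member would put a floor under the whole array, and no such floor is seen in gamma (0 to 15 counts for Pcdhga10 beside 257 to 1424 for Pcdhgc3 in the fetal libraries) or in alpha (7 to 13 counts for the lowest member beside 163 to 425 for Pcdhac2). The variable exons are also alike in sequence in places: runs of 50 bases that recur in another member made up at most 25.3% of an alpha member (Pcdha7, closest to Pcdha8), 8.75% of a beta member and 17.9% of a gamma member. Values of Pcdha7 and Pcdha8, of Pcdhb12 (36.5% unshared because of the antisense gene Gm37446) and of the 3 members with few counts above are the least certain.

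**Figure D1:**
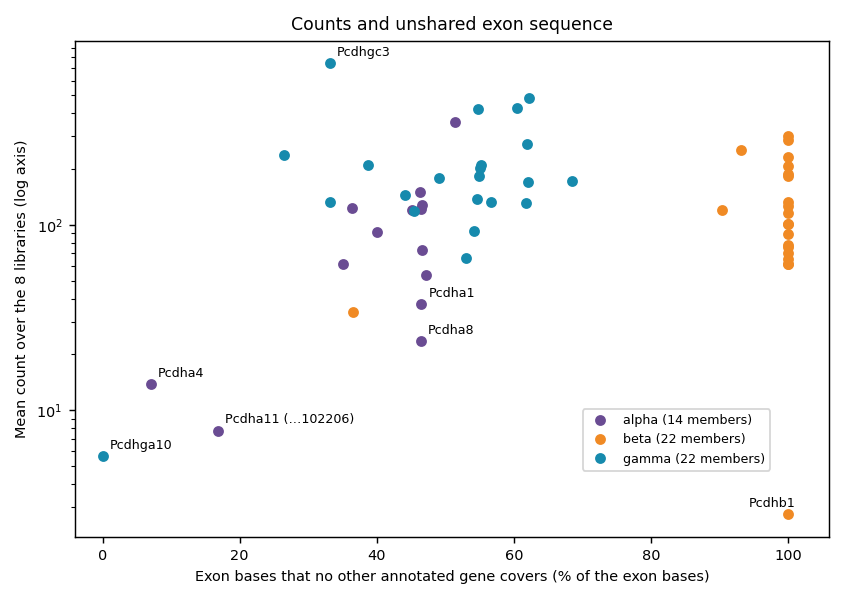
Mean count over the 8 libraries (log axis) against the percent of exon bases that no other annotated gene covers, with 1 point for each of the 58 members coloured by cluster. Pcdha4, Pcdha11 (ENSMUSG00000102206) and Pcdhga10 lie at the lower left with 0 to 16.8% unshared, and Pcdhb1 is low although all its exon bases are its own.

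Nearly all members were detected: 56 or 57 of 58 reached 10 counts in the WT libraries, 55 or 56 in KO day 15 and 54 in KO week 70. The exception in the beta array was Pcdhb1, the first beta gene, with 2, 1 and 0 counts in WT, 0, 0 and 4 in KO day 15 and 9 and 6 in KO week 70. Pcdha11 (ENSMUSG00000102206) had 14, 10 and 8 counts in WT, 7, 7 and 16 in KO day 15 and 0 in both week 70 libraries, where a count of 0 still allows 3 counts. Pcdhga10 had 15, 8 and 10 counts in WT, 0, 2 and 9 in the KO fetuses, and 0 and 1 by week 70. These 3 genes did not pass the filter on low counts and were not tested.

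Between genes, levels can be compared only per length, here as normalised CPM per kb of unshared exon for the 56 members with at least 1000 unshared bases. In WT day 15 the median level was 3.30 CPM per kb in alpha, 1.69 in beta and 4.49 in gamma. Pcdhgc3, a C-type isoform known for promoting dendrite branching, had the highest level at 33.7 CPM per kb, followed by the alternate isoforms Pcdhga11 (15.1) and Pcdhgb6 (13.7), the C-type isoform Pcdhgc4 (13.1), which is known for its part in neuronal survival, and Pcdhgb7 (8.82). In KO day 15 Pcdhgc3 also had the highest level (8.79 CPM per kb), and the cluster medians were 1.88 in alpha, 1.14 in beta and 1.84 in gamma. At week 70 the order of the highest levels was Pcdhgc3 (25.2 CPM per kb), Pcdhgc5 (19.2), Pcdhac2 (12.7), Pcdhga11 (11.3) and Pcdhb9 (11), so that 3 C-type isoforms led. These levels leave out exon bases that an antisense gene covers. With overlap on the same strand alone, Pcdhgc3 has 3380 unshared bases in place of 1821, and Pcdhga11 has 2637 in place of 1256. Their levels would then be lower, so the order depends on the use of strand, which is not known.

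Summed over its members, each array was lower in KO than in WT at day 15, and the gamma array by the most. The gamma sum was 354, 337 and 352 normalised CPM in WT, 138, 121 and 141 in KO day 15 and 348 and 384 in KO week 70. The beta sum was 165, 174 and 186 in WT, 123, 129 and 132 in the KO fetuses, and 188 and 198 by week 70. The alpha sum was 82.6, 85.6 and 98.6 in WT, 60.8, 55.2 and 59.3 in the KO fetuses, and 73.6 and 91.8 by week 70. For all 3 sums the KO day 15 libraries lay below every WT library and below both week 70 libraries, while the WT and week 70 values of alpha and gamma overlapped and those of beta did not.

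The log2 ratio of group means, KO over WT at day 15, was -1.39 for gamma, -0.61 for alpha and -0.45 for beta, and that of week 70 over day 15 in KO was 1.46, 0.50 and 0.59. Both ratios use the same KO day 15 libraries, so opposite signs between them are not separate observations. Within the alpha sum, whose means were 58.4 CPM in KO day 15 and 82.7 at week 70, Pcdhac2 alone went from 11.5 to 38.3 CPM. The 11 tested alternate alpha isoforms had a median log2 fold change of -0.11 with age, so the higher alpha sum rested on Pcdhac2. The make-up of the family moved with these sums. Gamma members took 56.9% ± 1.82 (SD, n = 3) of all clustered protocadherin counts in WT and 41.6% ± 1.73 (SD, n = 3) in KO day 15, and 57.1% and 57.0% in the week 70 libraries. Beta members took 28.6% ± 1.03, 40.1% ± 2.04, and 30.8% and 29.4%, and alpha members 14.5% ± 0.890, 18.3% ± 0.545, and 12.1% and 13.6%. These shares are taken within a library and do not depend on the scaling between libraries. Neither they nor the sums are corrected for transcript length or GC content. Median GC content was 46.1% in beta, 52.9% in alpha and 52.6% in gamma members, and its part in the shares was not tested. No p-value is given for sums over chosen members. In bulk RNA, fewer cells of a type and less RNA per cell cannot be told apart.

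**Figure D2:**
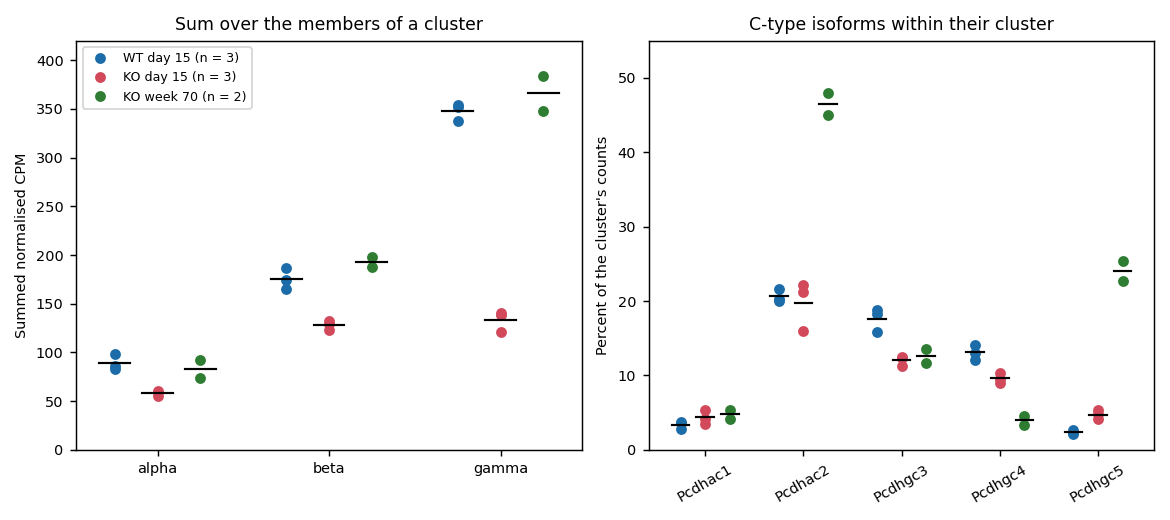
Left, summed normalised CPM of the alpha, beta and gamma members in each library (points) with the group mean (line), from 0 upward; right, each C-type isoform as a percent of its array's counts. The gamma sum of the KO day 15 libraries lies between 121 and 141, below 337 to 354 in WT, and Pcdhac2 and Pcdhgc5 take their largest shares at week 70.

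At day 15, no member was higher in KO than in WT and 38 of the 55 tested members were lower by edgeR's quasi-likelihood test (adjusted p under 0.05 over all genes), among them 19 of 21 gamma, 11 of 21 beta and 8 of 13 alpha members. Of all 19147 genes tested, 62.6% were called, 32.5% lower and 30.1% higher, so calls were common in this comparison in general. The median log2 fold change was -0.64 over the tested members (-1.26 in gamma, -0.50 in alpha and -0.41 in beta) and 0.03 over all genes. At an unadjusted p under 0.05, edgeR had 0 members higher and 42 lower, and DESeq2 called 0 higher and 37 lower. In 43 members every KO library lay below every WT library, and in 0 members above, where 36.2% and 32.1% of all tested genes did so (68.3% either way). Calls numbered 42 without WT replicate 1 and 35 without WT replicate 3, which are the WT libraries with the meningeal and the Hox signal.

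The log2 fold changes of the genotype comparison moved with GC content. Over all 19050 tested genes with a value, the log2 fold change had a Spearman correlation with GC content of -0.48 across genes, and over the 55 members it was -0.41. After a correction for length and GC within each library, edgeR called 33 members lower and 0 higher, against 24.8% lower and 26.6% higher of all genes (51.4% in all), and these were 18 gamma, 11 beta and 4 alpha members. The corrected medians were -1.21 in gamma, -0.42 in beta and -0.24 in alpha, so the alpha median lost the most. The 8 progenitor markers were also all lower in KO (median log2 fold change -1.14) with no gene of that list at 0 counts. After correction their median was -0.77, and Pax6 alone lost its call (0.12, edgeR adjusted p = 0.175). Of the 12 neuronal markers 5 were lower and 3 higher, with a median of -0.14, and -0.03 after correction. All 5 endothelial markers were lower (median -1.60, and -1.09 after correction), with sums of 159 to 216 CPM in WT and 45.1 to 57.9 in KO day 15. Of the 6 astrocyte markers 4 were lower and 1 higher, with sums of 441 to 505 and 211 to 217 CPM, and of the 6 fibroblast and meningeal markers 4 were lower and 0 higher. In the other direction the 5 erythroid markers were all higher, at 822 to 935 CPM in WT and 3005 to 3711 in KO day 15. The part of these markers, of depth and of GC content in the protocadherin values was not tested beyond that correction.

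The C-type isoforms split into those that fell and those that did not pass the test. Pcdhgc3 had 1424, 1233 and 1106 counts in the WT fetuses against 257, 271 and 299 in KO, which is 61.3 ± 5.50 against 16.0 ± 1.19 normalised CPM (SD, n = 3 each). It fell by 1.90 ± 0.0892 (SE) on the log2 scale (edgeR adjusted p = 5.23e-08), and the groups were far from overlapping. Pcdhgc4 had 915, 882 and 988 counts in the WT fetuses against 235, 206 and 218 in the KO fetuses, which gave a log2 fold change of -1.79 ± 0.101 (SE, edgeR adjusted p = 1.47e-07). Both changes held after the length and GC correction, at -1.87 and -1.34. Pcdhgc5, which is known to bind GABA-A receptor subunits, had 199, 151 and 148 counts in the WT fetuses against 93, 117 and 115 in KO. Its values did not overlap, yet its log2 fold change of -0.33 missed the threshold (edgeR adjusted p = 0.0774), passed it with all 8 libraries in the fit (-0.37, edgeR adjusted p = 0.0427) and was 0.36 after correction (edgeR adjusted p = 0.0652).

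Pcdhac2, the C-type isoform that serotonergic axons need for even spacing, had 353, 348 and 425 counts in the WT fetuses against 222, 210 and 163 in KO. It fell by 0.64 ± 0.146 (SE) on the log2 scale (edgeR adjusted p = 0.00321), with every KO library under every WT library in CPM. This call was lost after the length and GC correction, at -0.05 (edgeR adjusted p = 0.757). The 3 serotonergic markers summed to only 5.85 to 8.60 CPM in WT and 3.82 to 4.51 in KO day 15, and 1 of the 3 was lower. Pcdhac1 had 66, 61 and 55 counts in the WT fetuses against 42, 53 and 36 in the KO fetuses, which gave a log2 fold change of -0.19 (edgeR adjusted p = 0.441) and overlapping groups.

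Among the alternate gamma isoforms, which carry most of the gamma counts, all 11 tested gamma a members and 6 of 7 gamma b members fell. Of all genes tested for genotype, 32.5% were lower. Pcdhga2 fell the most of all members tested: it had 303, 271 and 306 counts in the WT fetuses against 47, 55 and 51 in the KO fetuses, which gave a log2 fold change of -2.24 ± 0.132 (SE, edgeR adjusted p = 2.03e-07), and -1.94 after correction. Pcdhgb6, the most abundant gamma b isoform per length in WT, had 751, 735 and 660 counts against 154, 190 and 155 and a log2 fold change of -1.82 ± 0.0967 (SE, edgeR adjusted p = 1.07e-07). Pcdhgb2 had 226, 193 and 227 counts against 52, 56 and 69 and fell by 1.58 on the log2 scale. None of these 3 isoforms had overlapping groups. The other 9 gamma a isoforms that fell, without Pcdhga2 and Pcdhga12, had log2 fold changes from -1.58 (Pcdhga11) to -0.95 (Pcdhga6), and Pcdhgb1, Pcdhgb7 and Pcdhgb5 had -1.30, -0.97 and -0.86.

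At the other end of the gamma array's changes, Pcdhga12 had 382, 383 and 379 counts in the WT fetuses against 176, 160 and 223 in KO and fell by 0.75 on the log2 scale (edgeR adjusted p = 0.000709). Pcdhgb4 had 150, 171 and 174 counts against 103, 85 and 100 and fell by 0.50 (edgeR adjusted p = 0.0211). The Pcdhgb4 call was lost after correction (-0.23, edgeR adjusted p = 0.269), under upper-quartile scaling, and without KO replicate 2, WT replicate 2 or WT replicate 3, where edgeR's adjusted p was 0.0860, 0.0595 and 0.0600. Pcdhgb8, which the annotation lists as a polymorphic pseudogene, was the gamma b member without a call. It had 103, 98 and 146 counts in the WT fetuses against 93, 93 and 145 in KO, and its log2 fold change was 0.21 (edgeR adjusted p = 0.444). The lowest and highest libraries of both groups overlapped in CPM.

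In the beta array Pcdhb2 and Pcdhb3 had the lowest log2 fold changes of the 21 genes tested, before and after correction. Pcdhb2 had 99, 100 and 96 counts in the WT fetuses against 26, 30 and 30 in KO, and fell by 1.49 ± 0.184 (SE) on the log2 scale (edgeR adjusted p = 4.50e-05). Pcdhb3 had 111, 105 and 147 counts against 50, 37 and 31 and fell by 1.33 ± 0.239 (SE, edgeR adjusted p = 0.000659). Pcdhb13 had 52, 53 and 48 counts against 14, 26 and 29 and a log2 fold change of -0.87 (edgeR adjusted p = 0.0174), a call that was lost without KO replicate 1 (-0.64, edgeR adjusted p = 0.0531). All 3 had separate groups. Pcdhb14 (99, 86 and 94 against 67, 90 and 66 counts), Pcdhb12 (18, 23 and 26 against 13, 23 and 20) and Pcdhb11 (104, 68 and 139 against 75, 91 and 99) had log2 fold changes of -0.04, 0.02 and 0.05 with overlapping groups. For Pcdhb12 and Pcdhb11 the sign turned under the correction, to -0.49 and -0.01, again with no call. Toward the other end of the array, Pcdhb17 and Pcdhb22 fell by 0.62 and 0.48 on the log2 scale. After correction Pcdhb17 was still called (-0.60), and the Pcdhb22 call was lost (-0.18, edgeR adjusted p = 0.156). The other 6 beta genes that fell ranged from -0.79 (Pcdhb5) to -0.39 (Pcdhb16). Pcdhb8, Pcdhb9, Pcdhb10 and Pcdhb19 had separate groups and no call, with log2 fold changes of -0.49, -0.17, -0.47 and -0.27. Pcdhb19 was called after correction (-0.32, edgeR adjusted p = 0.0228).

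Among alpha members, Pcdha12 had 197, 163 and 154 counts in the WT fetuses against 82, 76 and 72 in KO and fell by 0.87 ± 0.148 (SE) on the log2 scale (edgeR adjusted p = 0.000465). Pcdha7 had 139, 122 and 191 counts against 55, 73 and 80 and fell by 0.84 ± 0.214 (SE, edgeR adjusted p = 0.00596). Pcdha11 (ENSMUSG00000007440) had 115, 98 and 103 counts against 52, 47 and 55 and fell by 0.75 ± 0.172 (SE, edgeR adjusted p = 0.00320). The groups of these 3 alternate isoforms did not overlap, and all 3 were called after correction, at -0.63, -0.62 and -0.48. Pcdha8 (29, 13 and 31 against 17, 21 and 32 counts), Pcdha1 (31, 43 and 58 against 32, 33 and 34) and Pcdha4 (11, 24 and 25 against 21, 10 and 13) had log2 fold changes of 0.23, -0.14 and -0.17 with overlapping groups. The values of Pcdha1 and Pcdha4 turned to 0.18 and 0.16 under the correction. All 3 are low, and the standard errors of 0.277 to 0.427 show how little their counts can resolve. The other alternate isoforms Pcdha2, Pcdha6, Pcdha3 and Pcdha5 fell by 0.71, 0.57, 0.50 and 0.48 on the log2 scale, and of these Pcdha6 was also called after correction (-0.54, edgeR adjusted p = 0.0381).

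**Figure D3:**
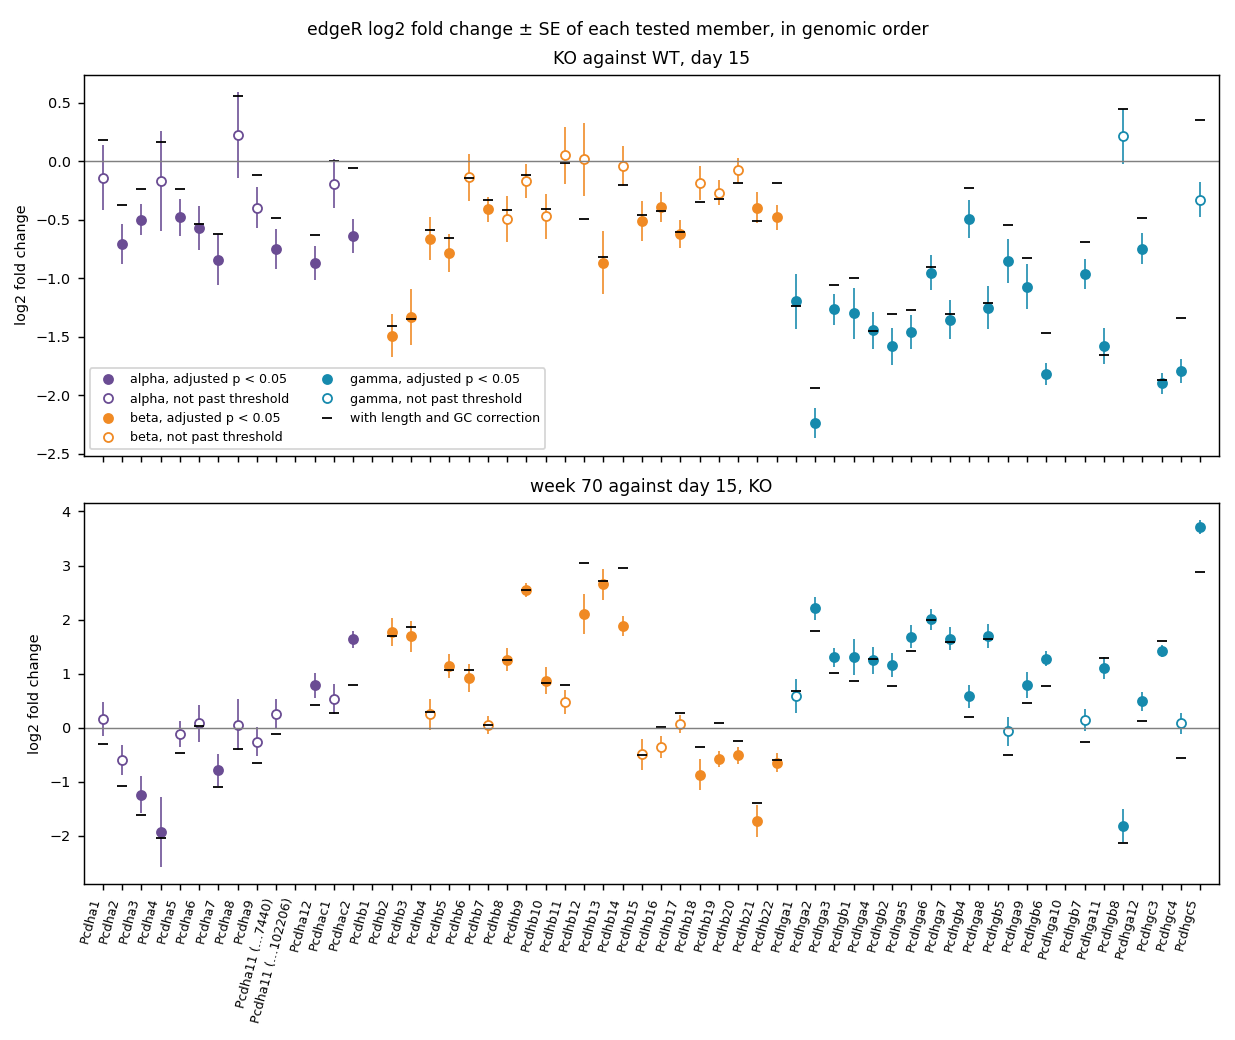
Log2 fold change ± SE from edgeR for each tested member in genomic order, KO against WT at day 15 (top) and week 70 against day 15 in KO (bottom), with filled points past an adjusted p of 0.05 and black dashes for the fit corrected for length and GC. The top panel holds no filled point above 0, and in the bottom panel Pcdhgc5 reaches 3.71; both panels use the same KO day 15 libraries.

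With age in KO, 28 of 55 tested members were higher at week 70 than at day 15, 9 were lower and 18 did not pass the test (edgeR, adjusted p under 0.05), where 37.6% of all 20000 genes tested were higher and 44.4% lower (82% in all). The higher members were 16 of 21 gamma, 10 of 21 beta and 2 of 13 alpha members, and the lower were 1, 5 and 3. The median log2 fold change was 0.59 over the tested members (1.25 in gamma, 0.48 in beta and 0.06 in alpha) and -0.19 over all genes. In 35 of the 58 members, the untested Pcdhb1 among them, both week 70 libraries lay above every KO day 15 library, and in 11, the untested Pcdha11 (ENSMUSG00000102206) among them, below, where 42.3% and 45.6% of all tested genes did so (87.9% either way). Without week 70 replicate 2, the library with the choroid plexus signal, 26 members were higher and 11 lower.

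The length and GC correction left 25 members higher and 9 lower, where 40% and 38.7% of all genes were called (78.7% in all). The alpha median turned from 0.06 to -0.40 under it and was -0.19 under upper-quartile scaling, so no direction can be given for the alpha array as a whole. The gamma median was 0.87 and the beta median 0.79 after correction. The Spearman correlation of the age change with GC content across genes was 0.28 over 19896 genes and 0.09 over the 55 members. Markers of astrocytes and oligodendrocytes differed by far more between these ages. In KO the 6 astrocyte markers summed to 211 to 217 CPM at day 15 and 6440 to 6850 at week 70. The 6 oligodendrocyte markers summed to 77.8 to 83.0 and 13300 to 13430. Other lists differed less. The 12 neuronal markers (7 higher, 5 lower) summed to 5466 to 5532 and 10540 to 10740. The 8 progenitor markers (1 higher, 7 lower) summed to 570.2 to 601 and 208 to 218. Of the 6 fibroblast and meningeal markers 2 were higher and 2 lower, with a median log2 fold change of 0.04. The part of cell make-up in the protocadherin values was not tested.

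Pcdhgc5 had the largest change of any member with age before the length and GC correction, after which Pcdhb12 (3.06) and Pcdhb14 (2.95) were above it. Pcdhb12 was corrected on 1107 bases, although 3034 are unshared on its own strand, so its corrected value depends on the use of strand. Pcdhgc5 held 93, 117 and 115 counts in the KO day 15 libraries and 1197 and 1413 at week 70, which is 6.27 ± 0.554 normalised CPM (SD, n = 3) against 79.0 and 97.5. It rose 13.1-fold, a log2 fold change of 3.71 ± 0.130 (SE, edgeR adjusted p = 1.47e-09), and 2.89 after correction. Pcdhac2 held 222, 210 and 163 counts at day 15, then 535 and 599 at week 70 and rose by 1.63 ± 0.152 (SE) on the log2 scale (edgeR adjusted p = 2.66e-06), or 0.80 after correction (edgeR adjusted p = 0.000257). Pcdhgc3 rose by 1.42 ± 0.110 (SE, edgeR adjusted p = 5.88e-07), from 257, 271 and 299 counts to 716 and 646. The groups of these 3 C-type isoforms did not overlap in CPM.

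Pcdhgc4 did not follow its neighbours. It held 235, 206 and 218 counts at day 15, then 175 and 254 at week 70, a log2 fold change of 0.09 (edgeR adjusted p = 0.692) and overlapping groups. After the length and GC correction it was lower at week 70, by a log2 fold change of -0.56 (edgeR adjusted p = 0.0201), so its direction depends on that correction. Pcdhac1 held 42, 53 and 36 counts at day 15, then 60 and 56 at week 70, a log2 fold change of 0.53 that missed the threshold (edgeR adjusted p = 0.101), although the groups did not overlap. With all 8 libraries in the fit it was called (0.63, edgeR adjusted p = 0.0317).

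The C-type share of the alpha counts overlapped between the fetal groups and was higher in both week 70 libraries. C-type isoforms gave 23.7%, 23.9% and 24.5% of the alpha counts in WT, 26.3%, 26.5% and 19.5% in the KO fetuses, and 53.3% and 49.2% by week 70. The 95% Wilson intervals, which cover counting error only, were 50.4 to 56.2% and 46.5 to 51.9% at week 70 and did not exceed 29.4% in any fetal library. KO day 15 replicate 3 was below the other fetal libraries. Nearly all of this was Pcdhac2, with 20.7% ± 0.889 (SD, n = 3) of the alpha counts in WT, 19.8% ± 3.33 (SD, n = 3) in the KO fetuses, and 47.9% and 45.0% by week 70. The C-type shares, here and for gamma below, are not corrected for length and GC. Pcdhac2 has the highest GC content of the alpha members (57.0%), and its log2 fold change with age was 1.63 before and 0.80 after correction.

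C-type isoforms gave 33.5%, 33.6% and 32% of the gamma counts in WT, 25.7%, 27.3% and 26.1% in the KO fetuses, and 39.6% and 41.6% by week 70, with no overlap between any of the groups. The isoform behind this total changed. In WT, Pcdhgc3 took 17.6% ± 1.61, Pcdhgc4 13.1% ± 1.01 and Pcdhgc5 2.33% ± 0.270 of the gamma counts (SD, n = 3). In KO day 15 these were 12% ± 0.632, 9.60% ± 0.681 and 4.74% ± 0.643 (SD, n = 3). At week 70, Pcdhgc3 took 13.6% and 11.6%, Pcdhgc4 3.32% and 4.57% and Pcdhgc5 22.7% and 25.4%. Per kb of unshared exon, the mean levels of Pcdhgc3, Pcdhgc4 and Pcdhgc5 were 33.7, 13.1 and 1.76 CPM in WT, 8.79, 3.68 and 1.36 in the KO fetuses and 25.2, 4.17 and 19.2 at week 70, so Pcdhgc5 passed Pcdhgc4 in the oldest brains.

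The alternate gamma isoforms also rose with age in KO, with 10 of 11 tested gamma a and 4 of 7 gamma b members higher. Of all genes tested with age, 37.6% were higher. Pcdhga2, which had the deepest fall between the fetal groups, held 47, 55 and 51 counts at day 15, then 187 and 248 at week 70 and rose by 2.21 ± 0.210 (SE) on the log2 scale (edgeR adjusted p = 3.19e-06). Its week 70 values of 12.3 and 17.1 normalised CPM enclosed those of WT day 15, 14.2, 13.5 and 15.4. Pcdhga6 held 106, 86 and 94 counts and then 425 and 287, a rise of 2.01 ± 0.194 (SE, edgeR adjusted p = 3.57e-06), and Pcdhga8 held 77, 50 and 70 and then 194 and 200, a rise of 1.70 (edgeR adjusted p = 4.95e-05). All 3 had separate groups. The other 7 gamma a isoforms that rose ranged from 0.49 (Pcdhga12) to 1.68 (Pcdhga5), and Pcdhgb1, Pcdhgb6, Pcdhgb2 and Pcdhgb4 rose by 1.30, 1.28, 1.16 and 0.59 on the log2 scale. The calls of Pcdhga9, Pcdhga12 and Pcdhgb4 were lost after correction, at 0.45, 0.12 and 0.21.

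Pcdhgb8 was the gamma member that fell with age. It held 93, 93 and 145 counts at day 15 and 29 in each week 70 library, a log2 fold change of -1.81 ± 0.305 (SE, edgeR adjusted p = 0.000274) and -2.13 after correction. Its share of the gamma counts was 1.63% in WT, 4.78% in KO day 15 and 0.535% at week 70 on average. Pcdhgb5 (127, 86 and 150 counts, then 115 and 99) and Pcdhgb7 (112, 146 and 156, then 127 and 153) had log2 fold changes of -0.07 and 0.14 with overlapping groups and no call. Along the array, the age change of the 18 alternate gamma isoforms tested was lower toward the 3' end (Spearman rho -0.55 with genomic order, across genes that share libraries). Over all 21 tested gamma members rho was -0.28. In the alpha array it was 0.68 over 13 tested members and 0.47 over the 11 alternate isoforms. In the genotype comparison, rho was 0.42 over the alternate gamma isoforms and 0.21 over all tested gamma members. In alpha it was -0.28 over all tested members and -0.40 over the alternate isoforms. Both comparisons use the same KO day 15 libraries, so opposite signs are not separate observations. None of these values is corrected for length and GC.

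The beta array divided by position with age, a split chosen after the values were seen. Of the 13 tested genes from Pcdhb2 to Pcdhb14, 10 rose and 0 fell, with a median log2 fold change of 1.26. Of the 8 genes from Pcdhb15 to Pcdhb22, 0 rose and 5 fell, with a median of -0.55. At an unadjusted p under 0.05, edgeR had the same 10 higher and 5 lower beta members in all. After the length and GC correction, 11 rose and 0 fell in the first run of genes (median 1.25), and 0 rose and 2 fell in the second (median -0.30). Over all genes tested with age, 37.6% were higher and 44.4% lower (82% in all), and after correction 40% and 38.7%. The rank correlation of the age change with genomic order was -0.65 over the 21 tested beta genes and -0.61 after correction, and GC content itself declined along the array (rho -0.57). In the genotype comparison the same split gave 6 and 5 genes lower, with medians of -0.47 and -0.39. Of all genes tested there, 32.5% were lower. The rank correlation with genomic order was 0.39 for genotype, and 0.33 after correction. Both comparisons use the same KO day 15 libraries, so these opposite signs are not separate observations.

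Pcdhb13 had the largest rise of the beta array before correction: it held 14, 26 and 29 counts at day 15, then 133 and 134 at week 70, a log2 fold change of 2.65 ± 0.292 (SE, edgeR adjusted p = 1.05e-05), and 2.71 after correction. Pcdhb9 held 85, 96 and 97 counts and then 509 and 489, a log2 fold change of 2.54 ± 0.133 (SE, edgeR adjusted p = 2.57e-08), and at week 70 it had the highest level per kb of the beta array. Pcdhb9 had been at 134, 117 and 130 counts in WT day 15 with no call between the fetal groups (-0.17, edgeR adjusted p = 0.325). Pcdhb12 held 13, 23 and 20 counts and then 52 and 95, a log2 fold change of 2.10 (edgeR adjusted p = 0.000403) on a gene that its antisense partner largely covers, and 3.06 after correction. The groups of all 3 were separate. The other 7 beta genes that rose ranged from 0.87 (Pcdhb10) to 1.88 (Pcdhb14, at 2.95 after correction), and Pcdhb11 (0.48, edgeR adjusted p = 0.0664) was called after correction alone, at 0.79.

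At the 3' end of the beta array, Pcdhb21 held 110, 108 and 128 counts at day 15, then 23 and 41 at week 70 and fell by 1.73 ± 0.301 (SE) on the log2 scale (edgeR adjusted p = 0.000350). Pcdhb22, the last beta gene, held 192, 229 and 232 counts and then 115 and 140 and fell by 0.65 (edgeR adjusted p = 0.00588). Pcdhb18 held 121, 129 and 141 counts and then 45 and 86, a log2 fold change of -0.87 (edgeR adjusted p = 0.0158). The Pcdhb18 call was lost after correction (-0.35, edgeR adjusted p = 0.240) and, with edgeR adjusted p of 0.0634 and 0.0789, without KO day 15 replicate 3 or without week 70 replicate 1. Pcdhb17, the beta gene with the highest level per kb in WT (4.49 CPM), had a log2 fold change of 0.07 with age, with overlapping groups. Pcdhb19 and Pcdhb20 fell by 0.58 and 0.51, and after correction they had 0.10 and -0.24 with no call.

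Among the 11 tested alternate alpha isoforms, 1 rose and 3 fell with age, and after correction 0 rose and 5 fell. Over all genes tested with age, 37.6% were higher and 44.4% lower, and after correction 40% and 38.7%. Pcdha2 (-0.60, and -1.08 after correction) and Pcdha9 (-0.26, and -0.66) were called after correction alone (edgeR adjusted p = 0.00748 and 0.0393). Pcdha3 held 122, 131 and 149 counts at day 15, then 30 and 74 at week 70 and fell by 1.24 ± 0.339 (SE) on the log2 scale (edgeR adjusted p = 0.00619), with a corrected value of -1.61. Pcdha4 held 21, 10 and 13 counts and then 4 and 3, a log2 fold change of -1.92 ± 0.643 (SE, edgeR adjusted p = 0.0175), and Pcdha7 held 55, 73 and 80 and then 30 and 44, with a value of -0.78 (edgeR adjusted p = 0.0351). Both calls were fragile: DESeq2's adjusted p was 0.0523 for Pcdha4 and 0.0535 for Pcdha7, Pcdha4 was lost without KO day 15 replicate 1 or week 70 replicate 2, and Pcdha7 without KO day 15 replicate 2, KO day 15 replicate 3 or week 70 replicate 1. Pcdha12 rose from 82, 76 and 72 counts to 103 and 140, by 0.78 on the log2 scale (edgeR adjusted p = 0.00917). That call was lost after correction (0.43, edgeR adjusted p = 0.0968) and without week 70 replicate 2 (0.51, edgeR adjusted p = 0.0618). Pcdha1 and Pcdha11 (ENSMUSG00000007440) had log2 fold changes of 0.16 and 0.26 with no call.

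**Figure D4:**
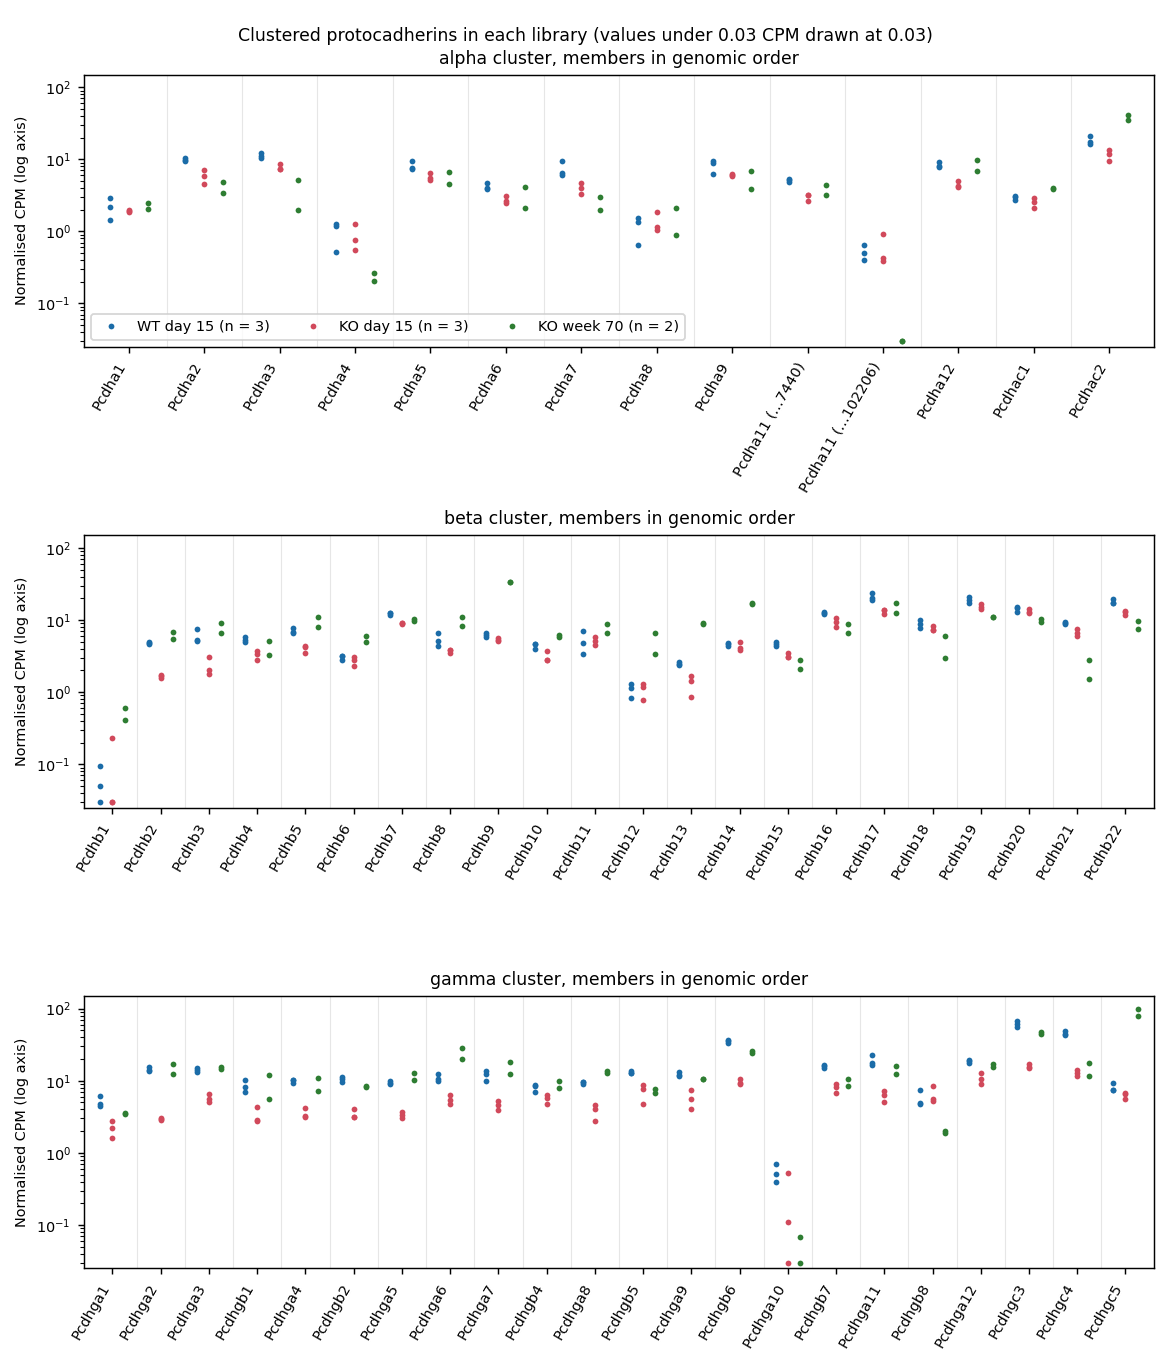
Normalised CPM of each of the 58 members in each of the 8 libraries (log axis, values under 0.03 drawn at 0.03), in genomic order within the alpha, beta and gamma arrays, with 1 colour per group. In the gamma panel the KO day 15 points lie below WT for all tested isoforms but Pcdhgb8, and in the beta panel the week 70 points lie above KO day 15 at Pcdhb9, Pcdhb13 and Pcdhb14 and below it at Pcdhb21.

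Genes that act on the arrays or with their proteins were counted by list, to be read against all tested genes, of which 32.5% were lower and 30.1% higher (62.6% in all) in KO at day 15, and 44.4% lower and 37.6% higher (82% in all) with age. Of 23 genes for promoter choice and silencing at the arrays (CTCF, cohesin and DNA methylation genes), 13 were lower and 2 higher in KO at day 15, with a median log2 fold change of -0.44, and -0.18 after correction. Trim28, a silencing cofactor (-1.68, edgeR adjusted p = 2.10e-08), Wiz, a zinc finger partner of the histone methyltransferases Ehmt1 and Ehmt2 (-1.63, edgeR adjusted p = 2.40e-08), and Dnmt1, the maintenance DNA methyltransferase (-1.44, edgeR adjusted p = 6.52e-08), had the smallest adjusted p. After correction these 3 were at -0.93, -0.79 and -0.64, all still called. Ctcf, whose protein sits at the alternate promoters, is named for that role and had a log2 fold change of -0.45 (edgeR adjusted p = 5.45e-05). With age in KO 19 of the 23 were lower and 2 higher, with a median of -1.04. Of these, Tet1, an enzyme that oxidises methylated cytosine, had the smallest adjusted p (-3.18, edgeR adjusted p = 1.29e-08, and -2.28 after correction).

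Of 22 genes for proteins that act with or below the protocadherins inside the cell, 17 were lower and 4 higher in KO at day 15 (median -0.65, and -0.24 after correction), and with age 17 were higher and 2 lower (median 0.94, and 1.49 after correction). Marcks, an actin-binding substrate of protein kinase C in gamma protocadherin signalling, fell by 1.92 on the log2 scale between the fetal groups (edgeR adjusted p = 1.39e-08). Ptk2b, the kinase Pyk2 that alpha and gamma constant domains bind, went from 1.61 CPM at day 15 to 555 CPM at week 70 in KO (log2 fold change 8.33, edgeR adjusted p = 4.15e-11, and 7.57 after correction). Cyfip2, a subunit of the actin-regulating WAVE complex, had a log2 fold change of -1.52 between genotypes (edgeR adjusted p = 2.75e-08) and of 3.87 with age (edgeR adjusted p = 1.73e-10), or -0.79 and 3.32 after correction.

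Adhesion genes outside the arrays gave counts of the same kind. Of 12 non-clustered protocadherins 8 were lower and 2 higher in KO at day 15 (median -0.65), and 6 were higher and 4 lower with age (median 0.54). Pcdh1, a delta protocadherin, had 113 normalised CPM in WT, 24.7 in KO day 15 and 228 in KO week 70, with log2 fold changes of -2.15 (edgeR adjusted p = 2.18e-08) and 3.11 (edgeR adjusted p = 1.84e-09), or -1.06 and 1.76 after correction. Of 18 tested classical cadherins 11 were lower and 4 higher in KO at day 15 (median -0.61), and with age 9 of 19 were higher and 5 lower (median 0.42).

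Genes around the arrays moved in both directions. Of 12 tested genes next to or between the arrays, 3 were lower and 4 higher in KO at day 15, with a median log2 fold change of 0.00 (0.16 after correction), and with age 4 were higher and 6 lower (median -0.12). Taf7, a general transcription factor subunit that lies between the beta and gamma arrays, had a log2 fold change of 0.45 in KO at day 15 (edgeR adjusted p = 0.00118, and -0.13 with no call after correction) and of -1.34 with age (edgeR adjusted p = 2.70e-06, and -0.39 after correction). Diaph1, an actin-nucleating formin directly after the gamma array, had values of -1.12 (edgeR adjusted p = 2.83e-07) and 1.39 (edgeR adjusted p = 1.66e-07), or -0.46 and 0.81 after correction. The gamma medians were -1.26 and 1.25 before correction, and -1.21 and 0.87 after it. Zmat2, a splicing factor before the alpha array, had values of 0.76 (edgeR adjusted p = 2.85e-06) and 0.49 (edgeR adjusted p = 0.000734).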

How the data were processed

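The deposited table holds raw read counts per Ensembl gene for 8 libraries, with no gene normalised by the authors. Per the submitters' processing notes, FastQC, cutadapt, Trimmomatic, HISAT2, featureCounts and edgeR were used and the builds GRCm38 and GRCm39 are named. Not given in the sources used here are the versions, the use of strand and how a read over several genes was counted. Groups followed the sample titles.

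The test on the counts was that of edgeR 4.0.16 under R 4.3.3 (filterByExpr on the groups, TMM scaling, two-sided quasi-likelihood F-test, Benjamini-Hochberg adjustment over all genes tested, threshold 0.05). The 6 fetal libraries entered the genotype comparison and the 5 KO libraries the age comparison. Values are normalised CPM. Depth limits the lowest genes, since a count of 0 allows 3 counts, and intervals cover counting error only. Exon sharing, length and GC content came from GENCODE release M 21 (GRCm38), which matched 33365 genes (97.3%) and all 58 members. The corrected fit used an offset per library smoothed on length and GC with mgcv 1.9.3. Both were taken from bases of the longest transcript that no other gene covers on either strand. Where these were fewer than 200, as for Pcdha4, the whole transcript was used. Members under antisense genes, such as Pcdhb12 (1107 bases) and Pcdhgc3 (1055 bases), thus have corrected values that depend on the use of strand. DESeq2 1.42.0, RLE and upper-quartile scaling, other filters, all 8 libraries in 1 fit, the replicate number as a block and leaving out each library were the alternatives. The scripts were tested on simulated data.

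Named members were the 5 C-type isoforms and, in each array and comparison, the 3 highest and 3 lowest log2 fold changes among the other tested members; list genes were up to 3 per list by adjusted p. Ctcf, Taf7, Pcdhb17, untested members and members given in ranges or short lists were named outside this rule after their values were seen. The members and lists were chosen with earlier results of these data known. No sequence is printed.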

Additional observations from a re-analysis of the deposited data

How the results depend on the processing

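In the genotype comparison the members called were 37 with DESeq2, 40 with RLE scaling, 37 with all 8 libraries in the fit, 38 with a filter at a mean of 10 counts, 41 with no filter, 30 with upper-quartile scaling, 33 after the length and GC correction and 34 to 42 with a library left out, against 38, and none was called higher under any of these. With age they were 34, 37, 39, 37, 38, 36, 34 and 34 to 37, against 37. Upper-quartile scaling moved the median change over all tested genes (log2) by 0.17 (genotype) and -0.25 (age). Under it the log2 ratios of the sums were -0.41 (alpha), -0.25 (beta) and -1.19 (gamma) for genotype and 0.16, 0.25 and 1.12 for age. RLE scaling gave beta ratios of -0.34 and 0.49. The median over tested members in place of the sum gave 0.056 (alpha), 0.48 (beta) and 1.25 (gamma) for age. Counts per unshared exon length gave C-type shares of 19.9% (alpha, WT), 44.6% (alpha, week 70) and 35.3% (gamma, week 70). Pcdhgc4 turned to -0.56 with age under the length and GC correction. The cause of these shifts was not tested.

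For genotype, same-numbered libraries correlated at -0.16, -0.19 and -0.17 in their deviations, and the other pairs at 0.0663 to 0.1. No library there correlated best with its own number. For age, same-numbered libraries correlated at 0.04 and 0.01, and both fetal libraries with a week 70 partner correlated best with their own number. The 2 week 70 libraries deviate from their mean by equal and opposite amounts, so the age values cannot decide on pairing. With the replicate number as a block 37 members were called for genotype and 32 for age, and 30 and 29 with the block and the length and GC correction together. With a week 70 library left out, the other was assumed to vary like the day 15 group.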
